A study of Rattus norvegicus with 20 samples.

Results

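Enzymes of branched-chain amino acid breakdown, 10 in number, were followed across the 4 groups of a rat array series. They were Bcat2, Bckdha, Bckdhb, Dbt, Ivd, Mccc1, Mccc2, Acadsb, Hibch and Acat1. The genes were taken by gene symbol, with the feature of the highest mean over all arrays standing for a gene, and 9 of the 10 were measured, each by 1 feature, among 14557 genes. Mccc1 was not analysed here, because the gene table of the platform used here does not list it. The series held 20 Affymetrix Rat Gene 2.1 ST arrays, whole-transcript arrays with probes along each gene, hybridised from 100 ng of total RNA of retroperitoneal tissue per sample. All rats were male and of the Zucker diabetic fatty (ZDF) strain, a model in which obese animals become diabetic. The 4 groups of 5 arrays were a rosiglitazone group, a resveratrol group, an obese group kept on a stock diet for 6 weeks, and a lean control group on standard Purina chow. Rosiglitazone is a drug that activates PPARG, the nuclear receptor that drives fat cell formation, and resveratrol is a polyphenol found in plants. Doses, the animals' ages and the diet of both drug groups are not stated by the labels. Nor do they call the drug groups obese, and setting them against the obese group takes it that they were. Obesity and diet cannot be told apart between the obese and lean control groups. Arrays of 1 group are biological replicates according to the labels. Levels are given as log2 values, so that a difference of 1 is a doubling, and a mean is followed by its SD with n = 5.

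Leucine, isoleucine and valine are broken down in mitochondria along a shared entry and separate later arms. Bcat2 moves the amino group off all of them, and the branched-chain keto acid dehydrogenase complex then removes a carbon irreversibly. Bckdha and Bckdhb are the subunits of its decarboxylase, and Dbt is its acyltransferase core. Ivd and the methylcrotonyl-CoA carboxylase subunits Mccc1 and Mccc2 serve leucine, Acadsb and Acat1 serve isoleucine, and Hibch serves valine. Adipocytes are known to express the whole pathway and to use its carbon for making fat.

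Promoter sequence was available for 7 of the 9 measured genes, all but Bckdha and Mccc2, as RefSeq windows of the GRCr8 assembly running from 250 bases before to 50 bases after the start of the gene. The windows of 3 genes are shown because their transcripts took different courses between the groups: Acat1 had the largest rosiglitazone minus obese difference of the 9 genes, Ivd was the gene that fell in obese tissue, and Bcat2 did not pass in rosiglitazone minus obese tissue. Acat1 is on the minus strand at chr8:62904993-62905292, Ivd on the plus strand at chr3:126305334-126305633 and Bcat2 on the plus strand at chr1:105178889-105179188. Capitals mark the CCAAT box and the GC box GGGCGG, read on either strand, and each run is written along the gene's own strand.
Acat1: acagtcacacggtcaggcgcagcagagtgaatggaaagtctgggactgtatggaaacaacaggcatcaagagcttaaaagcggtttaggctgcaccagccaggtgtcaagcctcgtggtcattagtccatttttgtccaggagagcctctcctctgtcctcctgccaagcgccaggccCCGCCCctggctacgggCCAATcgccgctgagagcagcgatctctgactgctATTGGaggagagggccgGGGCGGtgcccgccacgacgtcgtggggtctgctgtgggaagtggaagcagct
Ivd: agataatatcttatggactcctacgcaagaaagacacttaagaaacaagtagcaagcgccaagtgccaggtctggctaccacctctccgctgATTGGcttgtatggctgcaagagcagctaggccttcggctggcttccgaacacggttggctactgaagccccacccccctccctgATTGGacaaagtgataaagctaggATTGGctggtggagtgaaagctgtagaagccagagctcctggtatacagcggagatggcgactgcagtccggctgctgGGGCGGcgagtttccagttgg
Bcat2: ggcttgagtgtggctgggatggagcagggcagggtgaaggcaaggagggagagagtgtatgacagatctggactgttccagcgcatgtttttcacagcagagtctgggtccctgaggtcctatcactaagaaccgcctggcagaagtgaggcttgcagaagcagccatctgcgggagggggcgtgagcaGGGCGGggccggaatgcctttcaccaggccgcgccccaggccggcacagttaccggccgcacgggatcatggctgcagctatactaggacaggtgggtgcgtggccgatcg

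The GC box was found in 7 of the 7 windows, against 33.1% of 33465 rat promoter windows of the same 300 bases. The CCAAT box was found in 4 of the 7 windows, those of Dbt, Ivd, Acat1 and Bckdhb, against 37.5% of all windows. Ivd carried it at 3 places, Acat1 at 2 and Bcat2 at 0. Both of these motifs were searched after the sequences had been seen. The nuclear receptor half-site AGGTCA was found in 0 of the 7 windows, against 16.2% of all windows. The estrogen-related receptor element TCAAGGTCA and the direct repeat of the half-site with 1 base between its copies, which PPARG binds with RXR, contain that half-site and so were also found in 0 of 7, against 0.433% and 0.0538% of all windows. The motifs were searched on both strands. The windows were rich in G and C, with 60.0% in Acat1, 54.7% in Ivd and 62.3% in Bcat2, against a median of 51.7% over all windows.

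Adiponectin, the adipocyte hormone Adipoq, lay between 10.81 and 11.02 on rosiglitazone arrays, between 9.92 and 11.18 on resveratrol arrays, between 10.84 and 11.01 on obese arrays and between 10.94 and 11.10 on lean control arrays. Of the 7 adipocyte markers, Pnpla2 alone was higher on every rosiglitazone array (10.70 to 10.93) than on every obese array (9.89 to 10.54). Plin1 and Pnpla2 were lower on every resveratrol array than on every rosiglitazone and every lean control array. Car3 was lower on every rosiglitazone array than on every lean control array. Resveratrol array 1 stood apart, with 7 of 7 adipocyte markers below and 6 of 6 skeletal muscle and 5 of 5 milk protein markers above all 19 other arrays. Obese array 2 had 4 of 5 urothelial markers above all other arrays, and rosiglitazone array 2 had 3 of 5 brown adipocyte markers above all others, with Ucp1 at 10.52. Macrophage markers, 7 in number, averaged 6.96 and 6.19 on lean control arrays 1 and 3, against 4.63 to 5.03 on the other 3 lean control arrays. In bulk tissue, fewer cells of a type and less RNA per cell cannot be told apart. Array medians lay between 2.46 and 2.63, and 5 arrays a group limit how precise each difference can be.

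Rosiglitazone tissue was compared with obese tissue to ask which transcripts differ with the drug. Of the 9 enzymes, 7 were higher and 0 were lower in rosiglitazone tissue, against 7.19% of all 14557 genes called higher and 2.67% called lower. Because the enzymes were chosen with earlier results of these data known, setting their counts beside these shares is a description and no test. The enzymes that rose were both decarboxylase subunits, Bckdha and Bckdhb, and Ivd, Mccc2, Acadsb, Hibch and Acat1, by 1.67-fold to 3.39-fold. Dbt and Bcat2 did not pass. The median difference of the 9 enzymes was 1.19 on the log2 scale, against 0.01 over all genes. For 8 of the 9, all but Bcat2, each of the 5 rosiglitazone arrays lay above each of the 5 obese arrays, against 6.14% of all genes. A gene was called by limma at an adjusted p (Benjamini-Hochberg, over all genes) under 0.05. The 7 calls were kept in each of the 22 other settings in which limma was run.

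**Figure D1:**
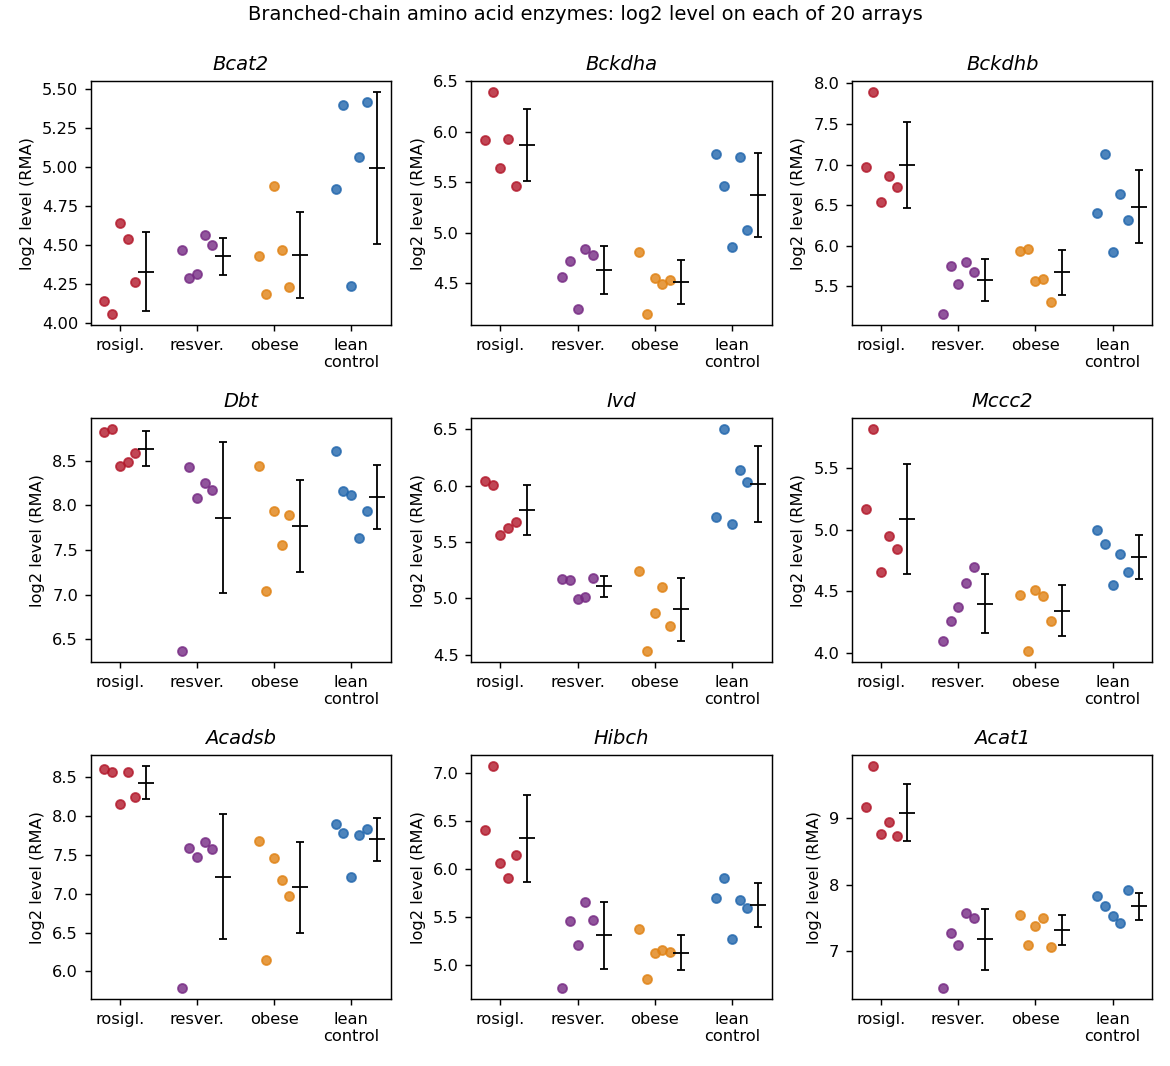
Log2 level of the 9 measured enzymes (vertical axis, a scale of its own in each panel) on each of 20 arrays, in the order rosiglitazone, resveratrol, obese and lean control; points are arrays in the order of their numbers, and the bar beside them is the group mean with its SD (n = 5). In 8 panels all rosiglitazone points lie above all obese points, and in the Bcat2 panel 4 of the 5 lean control points lie above all but 1 of the obese points.

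Bcat2 (feature 17616399) encodes the mitochondrial aminotransferase that starts the pathway. Its log2 level was 4.14, 4.06, 4.64, 4.54 and 4.26 on the rosiglitazone arrays and 4.47, 4.29, 4.32, 4.56 and 4.50 on the resveratrol arrays. It was 4.43, 4.18, 4.88, 4.47 and 4.23 on the obese arrays and 4.86, 5.40, 4.24, 5.07 and 5.42 on the lean control arrays. All but 1 of the lean control arrays lay above every rosiglitazone and every resveratrol array, and lean control array 3 lay among them. Rosiglitazone tissue averaged 4.33 ± 0.25 and obese tissue 4.44 ± 0.28, a difference of -0.11 with a 95% interval from -0.51 to 0.29 (limma adjusted p = 0.797).

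Bckdha (feature 17630698), the alpha subunit of the decarboxylase, was at 5.92, 6.39, 5.64, 5.93 and 5.47 on the rosiglitazone arrays and at 4.57, 4.72, 4.24, 4.84 and 4.78 on the resveratrol arrays. It was at 4.81, 4.20, 4.55, 4.49 and 4.53 on the obese arrays and at 5.78, 5.46, 4.86, 5.75 and 5.02 on the lean control arrays. All 5 rosiglitazone arrays were above all resveratrol and obese arrays, while the rosiglitazone and lean control ranges overlapped. Bckdha rose to 5.87 ± 0.35 in rosiglitazone tissue, against 4.52 ± 0.22 in obese tissue, by 1.35 (2.56-fold, limma adjusted p = 0.000145).

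Bckdhb (feature 17846309), the beta subunit, was at 6.97, 7.89, 6.54, 6.86 and 6.73 on the rosiglitazone arrays and at 5.16, 5.75, 5.52, 5.80 and 5.67 on the resveratrol arrays. It was at 5.94, 5.96, 5.57, 5.59 and 5.31 on the obese arrays and at 6.40, 7.13, 5.92, 6.63 and 6.32 on the lean control arrays. Rosiglitazone array 2 was the highest of all 20 arrays, and the other 4 rosiglitazone arrays were still above all obese and resveratrol arrays. Bckdhb rose to 7.0 ± 0.53 in rosiglitazone tissue, against 5.67 ± 0.28 in obese tissue, by 1.32 (2.5-fold, limma adjusted p = 0.000856).

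Dbt (feature 17742173), the acyltransferase core of the complex, was at 8.82, 8.85, 8.44, 8.48 and 8.58 on the rosiglitazone arrays and at 6.37, 8.43, 8.08, 8.25 and 8.18 on the resveratrol arrays. It was at 8.44, 7.04, 7.94, 7.56 and 7.89 on the obese arrays and at 8.61, 8.16, 8.11, 7.63 and 7.94 on the lean control arrays. Resveratrol array 1 and obese array 2 were lowest by a wide gap, and they are the arrays whose markers stood apart. Dbt averaged 8.64 ± 0.19 in rosiglitazone tissue and 7.77 ± 0.52 in obese tissue, a difference of 0.86 with an interval from 0.23 to 1.5 (limma adjusted p = 0.0773). With resveratrol array 1 and obese array 2 left out the difference was 0.68 (adjusted p = 0.0233), and without obese array 1 it was 1.03 (adjusted p = 0.0392). Over all other settings the adjusted p of Dbt lay between 0.0233 and 0.201.

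Ivd (feature 17764953), isovaleryl-CoA dehydrogenase, carries out the first step of the leucine arm after the complex. It was at 6.04, 6.00, 5.56, 5.63 and 5.67 on the rosiglitazone arrays and at 5.17, 5.16, 5.00, 5.02 and 5.18 on the resveratrol arrays. It was at 5.25, 4.53, 4.87, 5.10 and 4.76 on the obese arrays and at 5.72, 6.50, 5.66, 6.14 and 6.03 on the lean control arrays. The rosiglitazone and lean control arrays overlapped, and all of them lay above all resveratrol and obese arrays. Ivd rose to 5.78 ± 0.22 in rosiglitazone tissue, against 4.90 ± 0.28 in obese tissue, by 0.88 (1.84-fold, limma adjusted p = 0.0013).

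Mccc2 (feature 17744710), the beta subunit of the leucine arm's carboxylase, was at 5.17, 5.81, 4.66, 4.95 and 4.85 on the rosiglitazone arrays and at 4.10, 4.26, 4.37, 4.57 and 4.69 on the resveratrol arrays. It was at 4.47, 4.01, 4.51, 4.46 and 4.26 on the obese arrays and at 4.99, 4.88, 4.55, 4.80 and 4.66 on the lean control arrays. Rosiglitazone array 2 was the highest array, and rosiglitazone array 3 lay just under resveratrol array 5. Mccc2 rose to 5.09 ± 0.45 in rosiglitazone tissue, against 4.34 ± 0.21 in obese tissue, by 0.74 (1.67-fold, limma adjusted p = 0.0105), the smallest difference among the 7 enzymes that rose.

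Acadsb (feature 17621557), the short/branched-chain acyl-CoA dehydrogenase of the isoleucine arm, was at 8.60, 8.56, 8.15, 8.56 and 8.24 on the rosiglitazone arrays and at 5.78, 7.59, 7.46, 7.66 and 7.58 on the resveratrol arrays. It was at 7.67, 6.15, 7.45, 7.17 and 6.96 on the obese arrays and at 7.89, 7.78, 7.22, 7.75 and 7.83 on the lean control arrays. The rosiglitazone arrays lay above all 15 others, and resveratrol array 1 and obese array 2 were again the lowest. Acadsb rose to 8.42 ± 0.21 in rosiglitazone tissue, against 7.08 ± 0.59 in obese tissue, by 1.34 (2.53-fold, limma adjusted p = 0.00645). The difference was 1.11 without resveratrol array 1 and obese array 2.

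Acat1 (feature 17852554), the mitochondrial acetoacetyl-CoA thiolase that ends the isoleucine arm and also serves ketone body metabolism, was at 9.17, 9.78, 8.77, 8.95 and 8.73 on the rosiglitazone arrays and at 6.45, 7.27, 7.09, 7.58 and 7.51 on the resveratrol arrays. It was at 7.55, 7.10, 7.38, 7.49 and 7.07 on the obese arrays and at 7.83, 7.68, 7.54, 7.42 and 7.92 on the lean control arrays. The lowest rosiglitazone array exceeded the highest array of any other group. Acat1 rose to 9.08 ± 0.43 in rosiglitazone tissue, against 7.32 ± 0.22 in obese tissue, by 1.76 with an interval from 1.33 to 2.19 (3.39-fold, limma adjusted p = 2.59e-05), the largest difference of the 9 enzymes.

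Hibch (feature 17864323), the hydroxyisobutyryl-CoA hydrolase of the valine arm, was at 6.41, 7.07, 6.06, 5.91 and 6.15 on the rosiglitazone arrays and at 4.76, 5.46, 5.21, 5.66 and 5.47 on the resveratrol arrays. It was at 5.38, 4.86, 5.13, 5.16 and 5.13 on the obese arrays and at 5.70, 5.90, 5.27, 5.67 and 5.59 on the lean control arrays. All rosiglitazone arrays lay above all other arrays, with rosiglitazone array 4 just above lean control array 2. Hibch rose to 6.32 ± 0.46 in rosiglitazone tissue, against 5.13 ± 0.19 in obese tissue, by 1.19 (2.28-fold, limma adjusted p = 0.000504).

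For the 8 enzymes whose rosiglitazone and obese arrays did not overlap, the exact two-sided permutation test over 252 groupings gave p = 0.00794, the smallest it can give. Groups of 5 that do not overlap always give this value, so it adds nothing to their separation. Without resveratrol array 1 and obese array 2, 8 of the 9 enzymes were higher, against 871 of all 14557 genes, with a median difference of 1.11. Without rosiglitazone array 2 as well, 8 were again higher, against 840 of all 14557 genes, Dbt by 0.63 and Acat1 by 1.53. Of the brown adipocyte markers, 2 of 5, Ucp1 and Cidea, were higher on each rosiglitazone array than on any other array. Dio2 was higher on every rosiglitazone array (1.41 to 2.04) than on every obese array (1.33 to 1.40), while Ppargc1a and Elovl3 overlapped between these groups. The mean of the 5 brown adipocyte markers lay between 3.88 and 6.33 on rosiglitazone arrays and between 2.81 and 3.11 on obese arrays. The mean of the 7 macrophage markers lay between 4.66 and 6.18 on rosiglitazone arrays and between 5.32 and 6.86 on obese arrays. Of the endothelial markers, 3 of 5 (Cdh5, Cldn5 and Emcn) were lower on every rosiglitazone array than on every obese array, and the mean of the 5 lay between 5.16 and 5.58 on rosiglitazone arrays and between 5.73 and 6.59 on obese arrays. Of 4 liver markers, 1, the albumin gene Alb, was likewise separated, at 9.0 to 10.25 on rosiglitazone arrays and 3.04 to 4.54 on obese arrays. The part of these cell types in the differences was not tested. With each array centred on its median, the calls over all genes split into 1401 higher and 232 lower, in place of 1047 and 389, and 7 of the 9 enzymes were called higher.

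Obese tissue was compared with lean control tissue to ask what differs with obesity and diet. Ivd was the enzyme that fell: it averaged 4.90 ± 0.28 in obese tissue and 6.01 ± 0.34 in lean control tissue, a difference of -1.11 with an interval from -1.44 to -0.77, or 2.16-fold lower (limma adjusted p = 0.00556). Of the 9 enzymes, 1 was lower and 0 were higher, against 0.137% and 0.0412% of all genes. The differences of all 9 were negative, with a median of -0.56, against -0.05 over all genes. Obese and lean control arrays did not overlap for Ivd, Bckdha and Mccc2, 3 of the 9 enzymes, against 2% of all genes.

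The entry enzymes did not pass in this comparison. Bckdha averaged 4.52 ± 0.22 in obese tissue and 5.38 ± 0.42 in lean control tissue, a difference of -0.86 (limma adjusted p = 0.0646), and Bckdhb differed by -0.81 (adjusted p = 0.138). Bcat2 averaged 4.44 ± 0.28 in obese tissue and 5.00 ± 0.49 in lean control tissue, a difference of -0.56 (limma adjusted p = 0.209). The other 5 differences lay between -0.61 for Acadsb and -0.32 for Dbt, with limma adjusted p between 0.273 and 0.686.

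Lean control array 3 bore on these values, being the lowest lean control array for 7 of the 9 enzymes. Without it 3 enzymes were lower: Ivd, Bckdha by -0.99 (limma adjusted p = 0.0264) and Bcat2 by -0.75 (adjusted p = 0.0443). Of all 14557 genes, 58 were then called lower, in place of 20. Over all settings the adjusted p lay between 0.0264 and 0.166 for Bckdha and between 0.019 and 0.417 for Bcat2. Without lean control arrays 1 and 3, a choice made after the data were seen, Ivd, Bckdha and Bcat2 were again the 3 called lower, Bcat2 by -0.86. In that setting 79 of all 14557 genes were called lower. Ivd passed whichever array was left out, with an adjusted p of at most 0.033, and did not pass with the obese and lean control groups fitted alone (adjusted p = 0.0775; range over settings 0.000343 to 0.0775). Macrophage marker means lay between 5.32 and 6.86 on obese arrays and between 4.63 and 6.96 on lean control arrays, and their part was not tested.

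Rosiglitazone tissue was also set against lean control tissue. Acat1 and Hibch were higher and Bcat2 was lower, so that 2 of the 9 enzymes were called higher and 1 lower, against 2.63% and 2.56% of all genes. Acat1 averaged 9.08 ± 0.43 in rosiglitazone tissue and 7.68 ± 0.20 in lean control tissue, a difference of 1.40 with an interval from 0.97 to 1.83 (2.64-fold, limma adjusted p = 0.000323). Hibch averaged 6.32 ± 0.46 in rosiglitazone tissue and 5.63 ± 0.23 in lean control tissue, a difference of 0.69 (limma adjusted p = 0.0412). Bcat2 averaged 4.33 ± 0.25 in rosiglitazone tissue and 5.00 ± 0.49 in lean control tissue, a difference of -0.67, or 1.59-fold lower (limma adjusted p = 0.0432).

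Acat1, Hibch and Acadsb were the 3 enzymes whose rosiglitazone arrays all lay above all lean control arrays, against 2.36% of all genes. Acadsb differed by 0.73 (limma adjusted p = 0.189; range over settings 0.0117 to 0.378). The decarboxylase subunits differed by 0.49 for Bckdha (adjusted p = 0.159) and 0.51 for Bckdhb (adjusted p = 0.235). Ivd was at 5.78 ± 0.22 in rosiglitazone tissue and 6.01 ± 0.34 in lean control tissue, a difference of -0.23 with an interval from -0.57 to 0.10 (limma adjusted p = 0.503). The median difference of the 9 enzymes was 0.51, against -0.01 over all genes.

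Of the 5 brown adipocyte markers, Ucp1 and Cidea were higher on every rosiglitazone array than on every lean control array, as was Alb of the 4 liver markers. The other markers of both lists overlapped between these groups. Of the 5 endothelial markers, 3 (Cdh5, Cldn5 and Emcn) were lower and 1 was higher on every rosiglitazone array. The higher one was Vwf, at 4.77 to 5.17 on rosiglitazone arrays and 4.15 to 4.47 on lean control arrays. The 5 endothelial markers averaged 5.16 to 5.58 on rosiglitazone arrays and 6.18 to 6.42 on lean control arrays, and the part of these cell types was not tested. Acat1 passed in every setting run for rosiglitazone minus lean control. The calls of Hibch and Bcat2 were each lost when rosiglitazone array 1, 2 or 5 or lean control array 4 or 5 was left out, that of Hibch also without lean control array 3 and that of Bcat2 also without lean control array 2. Over these left-out arrays the adjusted p reached 0.114 for Hibch and 0.126 for Bcat2, and over all settings it lay between 0.0264 and 0.152 for Hibch and between 0.00215 and 0.126 for Bcat2. With each array centred on its median, the calls over all genes split into 445 higher and 280 lower, in place of 383 and 372, and Bcat2 did not pass (adjusted p = 0.0734).

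Resveratrol tissue was compared with obese tissue by the same test. None of the 9 enzymes passed: limma called 0 of 9, and 0 of all 14557 genes (0% in either direction). At an unadjusted p under 0.05, limma gave 0 of the 9 enzymes and 1286 of all genes, and the exact permutation test gave 0 of 9. With all arrays, the largest of the 9 differences was that of Ivd. It averaged 5.11 ± 0.09 in resveratrol tissue and 4.90 ± 0.28 in obese tissue, a difference of 0.20 with an interval from -0.13 to 0.54 (limma adjusted p = 0.703). Acat1 averaged 7.18 ± 0.45 in resveratrol tissue and 7.32 ± 0.22 in obese tissue, a difference of -0.14 with an interval from -0.57 to 0.29. The interval of Ivd, the narrowest, reaches a log2 difference of 0.54, and that of Acadsb reaches 0.76, the highest upper bound of the 9. The median difference was 0.09, against 0.02 over all genes. With single arrays left out, the difference lay between -0.10 and 0.49 for Acadsb and between -0.09 and 0.46 for Dbt. Without resveratrol array 1, that of Acat1 was 0.04. No enzyme passed in any of these settings.

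Against lean control tissue, Ivd fell by 0.90 on the log2 scale in resveratrol tissue, at 5.11 ± 0.09 in resveratrol tissue and 6.01 ± 0.34 in lean control tissue (limma adjusted p = 0.0371). It was the 1 enzyme called lower, with 0 called higher, against 0.0962% and 0.0275% of all genes. With all arrays the 9 differences were negative, with a median of -0.50, against -0.04 over all genes. Resveratrol and lean control arrays did not overlap for Ivd, Bckdha and Bckdhb, 3 of the 9, against 2.05% of all genes. Bckdha differed by -0.75 (limma adjusted p = 0.104) and Bckdhb by -0.90 (adjusted p = 0.101). The Ivd call was lost without any 1 of the 5 resveratrol arrays and without lean control array 2, 4 or 5, with a limma adjusted p of up to 0.122 (range over settings 0.00182 to 0.122). Without resveratrol array 1 and obese array 2 it was kept at -0.92 (adjusted p = 0.049), but the median of the 9 enzymes was then -0.32, with Dbt at 0.14, Acadsb at -0.12, against -0.48 with all arrays, and Hibch at -0.18, against -0.32. The comparisons with lean control tissue share the lean control arrays, and those with obese tissue share the obese arrays.

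Rosiglitazone and resveratrol tissue were set against each other directly. Of the 9 enzymes, 7 were higher in rosiglitazone tissue and 0 lower, against 4.09% and 2.81% of all genes: Bckdha, Bckdhb, Ivd, Mccc2, Acadsb, Hibch and Acat1. Acat1 averaged 9.08 ± 0.43 in rosiglitazone tissue and 7.18 ± 0.45 in resveratrol tissue, a difference of 1.90 (3.73-fold, limma adjusted p = 1.23e-05). Bckdhb rose by 1.42 (adjusted p = 0.000733), Bckdha by 1.24 (adjusted p = 0.000472), Acadsb by 1.20 (adjusted p = 0.0165), Hibch by 1.01 (adjusted p = 0.00293) and Ivd by 0.67 (adjusted p = 0.013).

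Mccc2 rose by 0.69 (limma adjusted p = 0.0218), with 1 rosiglitazone array inside the resveratrol range. Its call was lost without rosiglitazone array 2 (adjusted p = 0.0571), resveratrol array 1 (adjusted p = 0.0554) or resveratrol array 2 (adjusted p = 0.0535), with a range over settings of 0.00997 to 0.0924. Dbt differed by 0.77 (limma adjusted p = 0.145), or by 0.40 without resveratrol array 1 (adjusted p = 0.349; range over settings 0.0954 to 0.367), and Bcat2 by -0.10 (adjusted p = 0.852). Rosiglitazone arrays lay wholly above resveratrol arrays for 7 of the 9 enzymes, all but Bcat2 and Mccc2, against 4.43% of all genes. The median difference was 1.01, against 0.03 over all genes. Of the macrophage markers, 5 of 7 were lower on every rosiglitazone array than on every resveratrol array, with means of the 7 between 4.66 and 6.18 on rosiglitazone arrays and between 6.70 and 7.23 on resveratrol arrays. The 5 brown adipocyte markers averaged 3.88 to 6.33 on rosiglitazone arrays and 2.91 to 3.11 on resveratrol arrays. Ucp1 and Cidea were higher on every rosiglitazone array than on every resveratrol array, and the other brown adipocyte markers overlapped. The 5 endothelial markers averaged 5.16 to 5.58 on rosiglitazone arrays and 5.78 to 6.18 on resveratrol arrays. Among them, Cldn5 and Emcn were lower and Vwf was higher on every rosiglitazone array than on every resveratrol array. The part of these cell types in the differences between rosiglitazone and resveratrol tissue was not tested.

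**Figure D2:**
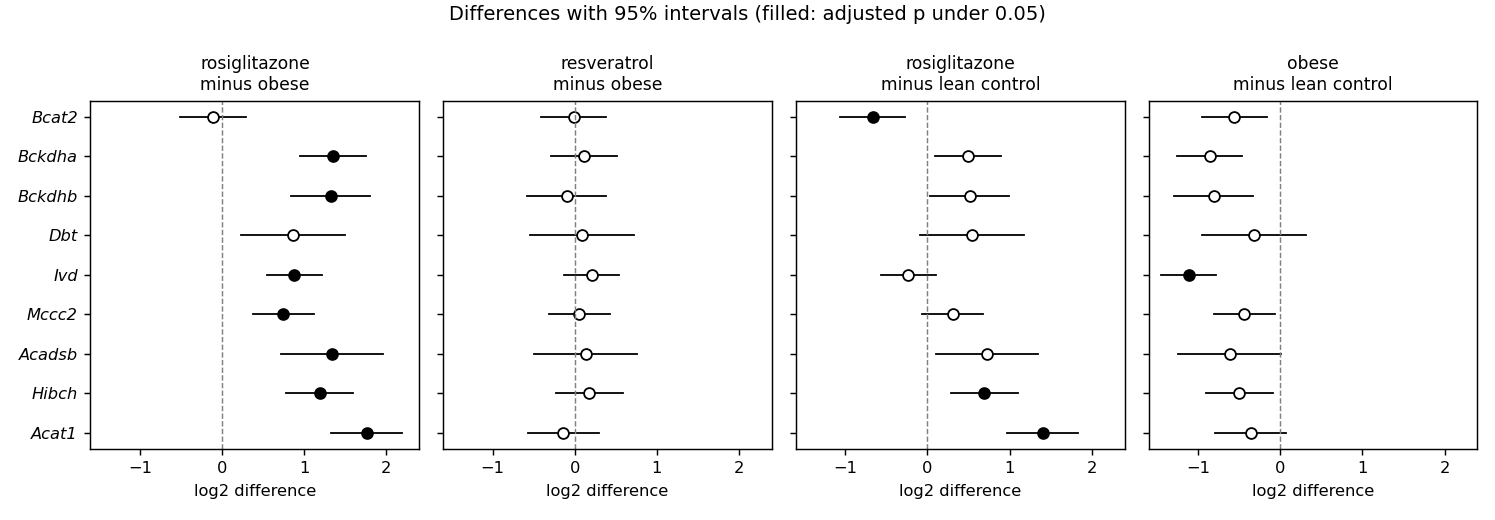
Log2 differences (horizontal axis) of the 9 measured enzymes with their 95% intervals, for rosiglitazone minus obese, resveratrol minus obese, rosiglitazone minus lean control and obese minus lean control; filled points passed limma at an adjusted p under 0.05. The panel of rosiglitazone minus obese has 7 filled points between 0.74 and 1.76, that of resveratrol minus obese has 0 filled points, and that of obese minus lean control has 1, Ivd at -1.11.

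By group mean, the enzymes followed a few orders of level. Bckdha, Dbt, Mccc2, Acadsb and Hibch were highest in rosiglitazone tissue, then in lean control, resveratrol and obese tissue. Bckdhb and Acat1 had the same order except that resveratrol tissue was lowest. Ivd was highest in lean control tissue, with rosiglitazone tissue next, and Bcat2 was highest in lean control tissue and lowest in rosiglitazone tissue. Of the neighbouring groups in these orders, limma separated rosiglitazone from lean control tissue for Acat1 and Hibch, and rosiglitazone from resveratrol tissue for Ivd. No other pair of neighbours passed, and resveratrol and obese tissue were not separated for any of the 9.

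The other genes of the pathway came from a list of 28, of which 22 were measured. In rosiglitazone minus obese tissue, 16 of the 22 were higher and 0 lower, against 7.19% and 2.67% of all genes, with a median difference of 0.97, against 0.01 over all genes. Dld, the lipoamide dehydrogenase that the complex shares with other keto acid dehydrogenases, rose by 0.96 (limma adjusted p = 0.0442). Bckdk, the kinase that inactivates the complex, was at 5.85 ± 0.27 in rosiglitazone tissue and 5.20 ± 0.08 in obese tissue and rose by 0.65 (limma adjusted p = 0.0063). Ppm1k, the phosphatase that activates it, differed by 0.41 (adjusted p = 0.373), and Slc25a44, the mitochondrial carrier of these amino acids, by 0.43 (adjusted p = 0.145). Which of the kinase and the phosphatase differed more was not tested.

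Along the arms, the rises continued past the 9 enzymes. Auh, the methylglutaconyl-CoA hydratase that follows Mccc2 in the leucine arm, rose by 1.22 (limma adjusted p = 0.000764). Acad8, the isobutyryl-CoA dehydrogenase of valine, rose by 0.68, and Echs1, an enoyl-CoA hydratase of the valine and isoleucine arms, rose by 1.42. Hibadh and Aldh6a1, the dehydrogenases after Hibch, rose by 0.97 and 1.18 (limma adjusted p = 0.00645 and 0.00367). Of the propionyl-CoA steps, Pccb rose by 0.60, Mcee by 1.39 and Mmut by 0.75 (adjusted p = 0.0302, 0.000603 and 0.0372), with Mcee in obese tissue at 2.89 ± 0.55, below the median gene level of 3.02. Oxct1, the enzyme of ketone body use, differed by -0.17 (adjusted p = 0.745). Agxt2 was at 1.24 ± 0.17 in rosiglitazone tissue and 1.43 ± 0.21 in obese tissue, far below the median gene level.

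In obese minus lean control tissue, limma called 0 of the 22 genes lower or higher, against 0.137% and 0.0412% of all genes. At an unadjusted p under 0.05, 9 were lower and 0 higher, against 1960 of all 14557 genes in either direction. The median difference was -0.37, against -0.05 over all genes. Klf15, a transcription factor known from mouse muscle to activate genes of this pathway, was at 2.77 ± 0.31 in obese tissue and 3.89 ± 0.36 in lean control tissue, a difference of -1.12 (limma adjusted p = 0.0578). Pccb differed by -0.73 (adjusted p = 0.0821), Aldh6a1 by -0.86 (adjusted p = 0.138) and Aox1, an aldehyde oxidase, by -0.84 (adjusted p = 0.143). Klf15 fell by 1.31 in resveratrol minus lean control tissue (limma adjusted p = 0.0371) and was not called without resveratrol array 1 and obese array 2. It was the 1 of the 22 called in that comparison, where 0.0962% of all genes were called lower. Its mean in obese tissue and its level on every resveratrol array (2.15 to 2.93) lay below the median gene level of 3.02. In resveratrol minus obese tissue 0 of the 22 passed, and 0 had an unadjusted p under 0.05, against 1286 of all 14557 genes.

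The list joins enzymes of fatty acid oxidation, some of which act on branched-chain intermediates too, to enzymes nearer the branched-chain steps, and these were set side by side after their values were seen. The 6 fatty acid oxidation enzymes Acadm, Acads, Hadh, Hadha, Hadhb and Acaa2 were all higher in rosiglitazone minus obese tissue, with a median of 1.69, and all higher in rosiglitazone minus lean control tissue, with a median of 1.5. The other 16 genes had 10 higher in rosiglitazone minus obese tissue, with a median of 0.66. In rosiglitazone minus lean control tissue they had 2 higher, Bckdk by 0.50 and Mcee by 0.90, with a median of 0.31. Over all genes, 7.19% were called higher in rosiglitazone minus obese tissue and 2.63% in rosiglitazone minus lean control tissue. In obese minus lean control tissue the median was -0.09 for the 6 and -0.47 for the 16. Acaa2 rose by 2.03 in rosiglitazone minus lean control tissue (limma adjusted p = 1.67e-06), against 1.40 for Acat1, a thiolase likewise. The difference between these groups of genes was not tested.

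**Figure D3:**
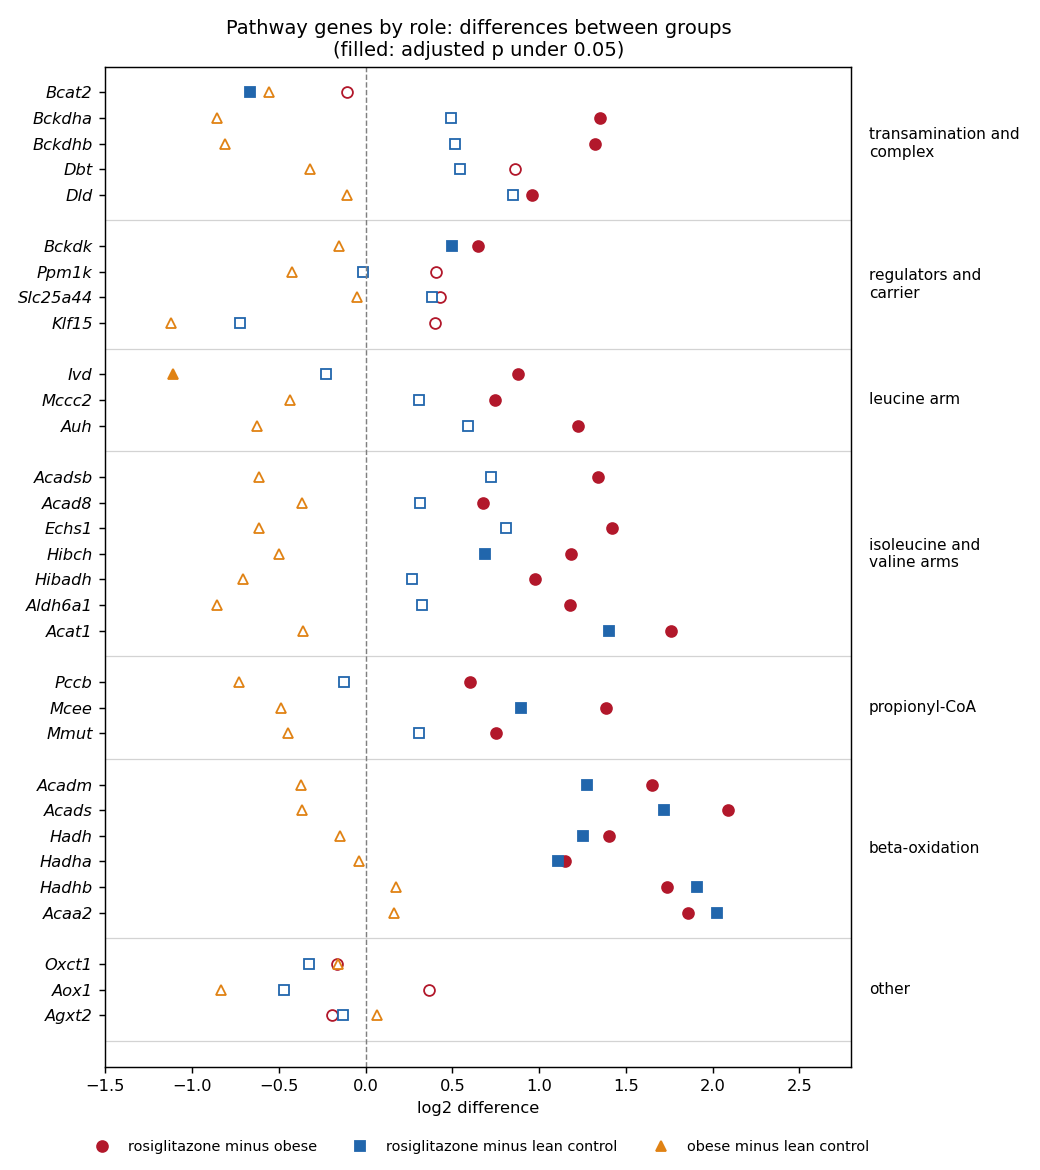
Log2 difference (horizontal axis) of the measured pathway genes arranged by role down the page, for rosiglitazone minus obese (circles), rosiglitazone minus lean control (squares) and obese minus lean control (triangles); filled symbols passed limma at an adjusted p under 0.05. The 6 fatty acid oxidation enzymes carry filled circles and filled squares, while among the other genes the filled squares are those of Acat1, Hibch, Mcee, Bckdk and, on the negative side, Bcat2.

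Mitochondrial genes outside the pathway were set beside the branched-chain enzymes. Of 18 measured genes of the citrate cycle, respiratory chain and other mitochondrial functions, 17 were higher in rosiglitazone minus obese tissue, where 7.19% of all genes were, with a median of 1.42, against 7 of 9 and 1.19 for the branched-chain enzymes. In rosiglitazone minus lean control tissue 16 of the 18 were higher, where 2.63% of all genes were, with a median of 1.22, against 2 of 9 and 0.51 for the branched-chain enzymes. In obese minus lean control tissue 0 of the 18 passed by limma, and the median was -0.20, against -0.56 for the branched-chain enzymes. At an unadjusted p under 0.05, 2 of the 18 were lower and 0 higher, against 1960 of all 14557 genes in either direction. Whether the lists differ was not tested.

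Array by array, the average deviation of the 9 enzymes from their means over all 20 arrays was 0.69, 1.04, 0.38, 0.53 and 0.40 in the rosiglitazone group and -0.91, -0.23, -0.41, -0.12 and -0.16 in the resveratrol group. It was -0.12, -0.78, -0.31, -0.39 and -0.54 in the obese group and 0.31, 0.43, -0.18, 0.20 and 0.19 in the lean control group. Every rosiglitazone array was above every resveratrol and obese array, and 4 of the 5 lean control arrays were above 0 while array 3 was below. The lowest values belonged to resveratrol array 1 and obese array 2, which were the lowest of their groups for 6 and 7 of the 9 enzymes. Rosiglitazone array 2 was the highest of its group for 6 of the 9 and the lowest for Bcat2. The 18 mitochondrial genes lay between 0.57 and 1.78 on rosiglitazone arrays and between -0.34 and 0.20 on lean control arrays.

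**Figure D4:**
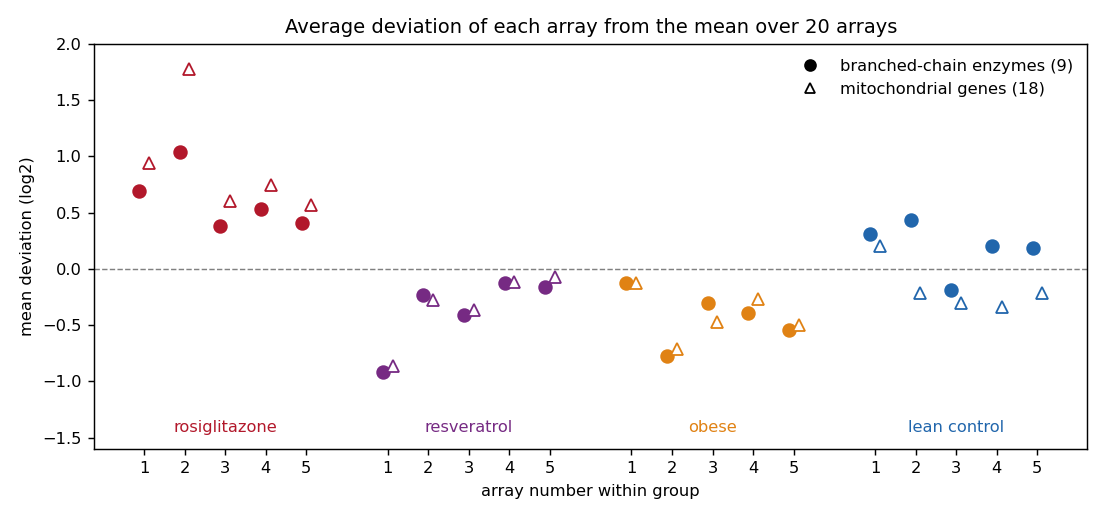
Average log2 deviation (vertical axis) of the 9 branched-chain enzymes (filled circles) and of 18 mitochondrial genes (open triangles) from their means over 20 arrays, by array number within each group (horizontal axis). On lean control arrays 2, 4 and 5 the circles lie above 0, at 0.19 to 0.43, and the triangles below it.

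The enzymes differed in how much they varied between arrays of a group. Their SD lay between 0.19 (Dbt) and 0.53 (Bckdhb) in rosiglitazone tissue, between 0.09 (Ivd) and 0.84 (Dbt) in resveratrol tissue, between 0.19 (Hibch) and 0.59 (Acadsb) in obese tissue and between 0.18 (Mccc2) and 0.49 (Bcat2) in lean control tissue. The median SD of the 9 was 0.35, 0.26, 0.28 and 0.34 in these groups, against 0.26, 0.23, 0.26 and 0.26 over all genes. The genes outside the set whose deviations over the 20 arrays were closest to the average of the 9 enzymes were Dnajc30, Hibadh, Clpb, Bphl and Ndufb2. Their mean absolute difference from that average was 0.126, 0.130, 0.130, 0.133 and 0.137 on the log2 scale, against a median of 0.447 over all genes and 0.131 to 0.429 for the 9 enzymes themselves. Each of the 9 enzymes is part of that average, which draws its own value down, unlike the values of other genes. These are descriptions over arrays that share their groups and their tissue pieces.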

How the data were processed

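RNA of 20 samples was measured on 20 arrays. The deposited table holds log2 values, normalised by the authors with RMA per the submitters' processing notes, which name no version or settings. The log2 scale was read from the values and the method's name. RMA shrinks large differences and sets no detection limit, and no level was tested against background. Of 36685 features, 14824 had 1 symbol in the platform's gene table, 829 had several and 21032 were not listed; the brightest feature per symbol left 14557 genes. Promoter windows came from RefSeq.

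Differences were tested two-sided with limma's lmFit and eBayes (version 3.58.1, run under R 4.3.3; group means over all 20 arrays, 16 residual and 5.41 prior degrees of freedom), and called at an adjusted p under 0.05 by the Benjamini-Hochberg method over the whole table. The script was tested on simulated data. All measured enzymes are named, other genes come from lists, and the 5 most alike genes by a distance. The enzymes and lists were chosen with earlier results of these data known. Alternatives were renormalising, centring, leaving out dim genes, all features, feature means, a minimum of 1.5-fold, array weights, eBayes with trend and robust settings, the replicate number as a block, the compared groups alone, an exact permutation test, and arrays left out singly or where they stood apart. Leaving out lean control arrays 1 and 3 was added after seeing the data.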

Additional observations from a re-analysis of the deposited data

Results flagged for a closer look

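For 36 sets of 5 arrays, 9 enzymes in 4 groups, the gap of the highest or lowest array to its neighbour was set against the range of the set, with Dixon's 95% critical value of 0.71. Chance alone passes about 1 in 20 such sets, and 3 of the 36 passed. Dbt was at 6.37 on resveratrol array 1, against 8.08 to 8.43 on the other 4 resveratrol arrays. Acadsb was at 5.78 on the same array, against 7.46 to 7.66. Acadsb was at 7.22 on lean control array 3, against 7.75 to 7.89 on the other 4 lean control arrays. Resveratrol array 1 is the array with 7 of 7 adipocyte markers below and 6 of 6 skeletal muscle markers above all others, and their part in these values was not tested.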

How the results depend on the processing

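The 7 enzymes called in rosiglitazone minus obese tissue were 7 or 8 in each other setting, the 7 in rosiglitazone minus resveratrol tissue were 6 to 8, and the 0 in resveratrol minus obese tissue stayed 0. The other counts were small and moved. In obese minus lean control tissue the count of 1 became 2 with dim genes left out, 0 with the compared groups alone, 3 without lean control arrays 1 and 3, 6 by the unadjusted exact permutation test, and 1 to 3 with single arrays left out. In rosiglitazone minus lean control tissue the count of 3 became 1 with all features tested, 1 with the replicate block, 5 by permutation, and 1 to 3 with single arrays left out. In resveratrol minus lean control tissue the count of 1 became 0 with all features or the groups alone, 3 with array weights, 2 with the replicate block, 3 without lean control arrays 1 and 3, 6 by permutation, and 0 to 1 with single arrays left out. The permutation counts of 6, 5 and 6 are at an unadjusted p under 0.05 and are not comparable with the adjusted counts. At that unadjusted threshold limma gave 1960, 2650 and 2007 of all 14557 genes in these comparisons, in the same order. No share of all genes was obtained by permutation, so its counts are no stronger evidence than the adjusted ones.

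No called difference changed sign among 1179 alternatives of single enzymes, of which 1108 kept direction and side of the threshold, 37 lost a call and 17 gained one; 17 changed the sign of an uncalled value. Those were Bcat2 in rosiglitazone minus obese tissue (-0.19 to 0.00079 with single arrays left out) and, in resveratrol minus obese tissue, Bcat2 (0.040 when centred, -0.075 to 0.099 with single arrays left out), Bckdhb (0.083 without resveratrol array 1 and obese array 2, -0.19 to 0.011), Dbt (-0.094 to 0.46), Mccc2 (-0.025 to 0.13), Acadsb (-0.099 to 0.49) and Acat1 (-0.24 to 0.044). In resveratrol minus lean control tissue Dbt was 0.032 with array weights, 0.14 without resveratrol array 1 and obese array 2, and -0.37 to 0.14 with single arrays left out. The cause was not tested.

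Over all genes, the 26 calls of obese minus lean control tissue became 8 with quantile normalisation again, 44 with dim genes left out, 4 with all features, 13 with feature means, 3 with the replicate block, 0 with the groups alone, 2 without resveratrol array 1 and obese array 2, 17 without rosiglitazone array 2 as well, and 110 without lean control arrays 1 and 3. The 18 calls of resveratrol minus lean control tissue became 0 with all features or the groups alone, 398 with array weights, 71 with the replicate block, 59 without the 3 arrays that stood apart by markers, and 333 without lean control arrays 1 and 3. The 0 calls of resveratrol minus obese tissue became 3 with array weights. With single arrays left out these counts were 2 to 65, 0 to 206 and 0 to 1.

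Whether the replicate numbers pair the arrays was not tested. Over 30 same-numbered pairs the correlation of deviations from group means lay between -0.21 and 0.36, with a median of 0.03. Of these pairs, 5 were over 0.1, and 10 had their best partner, among the 5 arrays of the other group, under the same number. With the replicate block Bckdhb passed in resveratrol minus lean control tissue (adjusted p = 0.0346), and Bcat2 and Hibch did not in rosiglitazone minus lean control tissue (adjusted p = 0.0733 and 0.0539). With 5 arrays a group the 95% intervals were as wide as that of Dbt in resveratrol minus obese tissue, from -0.54 to 0.72.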

Other observations

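PPARG target genes of adipocytes, 17 measured of a list of 20, had 5 members that were higher in rosiglitazone minus obese tissue and 0 that were lower, against 7.19% and 2.67% of all genes, with a median difference of 0.26. The count was 5 and the median 0.15 without resveratrol array 1 and obese array 2, where 871 of all 14557 genes were called higher. Without rosiglitazone array 2 as well, the count was 3 and the median 0.07, where 840 of all 14557 genes were called higher. With all arrays the 5 were the fatty acid binding protein Fabp3 by 3.64, the fatty acid transporter Slc27a1 by 2.23, the lipid droplet protein Cidea by 2.04, the kinase Pdk4 by 1.5 and the triglyceride enzyme Dgat1 by 1.07, with limma adjusted p between 2.63e-05 and 0.0271. Adipoq differed by -0.04 (adjusted p = 0.932). In obese minus lean control tissue limma called 0 of the 17. At an unadjusted p under 0.05, 3 were lower and 0 higher, against 1960 of all 14557 genes in either direction.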
